A study of Drosophila melanogaster with 16 samples.

Results

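In adult males aged 10 to 12 days, ribosome-bound mRNA of fru P1 cells was compared with the mRNA of the whole head. The members are the 4 male TRAP libraries (replicates 1, 2, 4 and 5) and the 4 male total mRNA libraries (replicates 1 to 4), chosen by their labels, which make up 8 of the 16 RNA-seq libraries of the series. The other 8 libraries are the same 2 fractions from females, also aged 10 to 12 days. TRAP (translating ribosome affinity purification) uses a GFP tag on the ribosomal protein RpL10A to capture ribosomes of chosen cells together with the mRNA bound to them. Total mRNA came from the supernatant of the lysate and was not selected for any cell type.

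All males, of both fractions, had the genotype w/Y, with UAS-Gal4 and UAS-GFP::RpL10A transgenes and fru P1-Gal4, so the total mRNA also held the transcripts of the transgenes. The females were w/w with the same transgenes. The tagged protein is made wherever the fru P1-Gal4 driver is active, and UAS-Gal4 amplifies Gal4 once it is present. Each library was made from many pooled flies, frozen in the early hours of the light phase, and the labels call the libraries biological replicates. The tagged ribosomes of a TRAP library are therefore an average over every driver-active cell type of the head. How much mRNA from outside these cells a TRAP library held was not measured. Among driver-active cells a gene can stand higher through more cells, more mRNA per cell or more ribosomes per mRNA, which cannot be told apart here.

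The fruitless gene has several promoters, and transcripts from P1 are spliced differently in the sexes. In males they encode transcription factors that are needed for courtship, and P1 is active in a small share of neurons spread over the brain and the sense organs. Neurons are marked by synaptic vesicle proteins, ion channels, receptors and cell-surface proteins for partner recognition, whereas glia, photoreceptors, muscle, fat body and cuticle cells make up much of the rest of the head.

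The exon counts of the 8 male libraries summed to between 18322073 and 25419045, and the floor set by a count of 0 was 3 counts, which is 0.118 to 0.164 CPM (counts scaled to the library size) by library. Such floors allow for counting error alone, and reads carried no molecular identifiers by which repeated copies could be removed. Within a group Spearman's rho across exons, which are not independent replicates, ranged from 0.892 to 0.973. The first principal component held 66.1% of the variance and separated the fractions. Male TRAP replicate 5 lay at 30.4 on it, nearer to the total mRNA libraries (-86.1 to -67.3) than the other TRAP libraries (75.9 to 101.2). Its rho with the total mRNA libraries was 0.856 to 0.892, against 0.764 to 0.840 for TRAP replicates 1, 2 and 4. Marker lists of other cell types moved with this library. The summed CPM of glia markers was 479, 458, 391 and 703 in TRAP replicates 1, 2, 4 and 5, against 1304 to 1541 in total mRNA. The summed CPM of fat body genes was 1344, 1213, 1288 and 2834 in the same TRAP libraries, against 2921 to 3575 in total mRNA. This sum includes the yolk protein genes Yp1 and Yp2, which varied widely within both fractions. In TRAP replicate 5 they had 530 and 197 CPM, against 5.40 to 88.0 and 1.77 to 28.9 CPM in the other TRAP libraries. The part of other cell types in the results was not tested. Class medians kept their sign without this library, and values without it are given beside those it moved most.

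**Figure D1:**
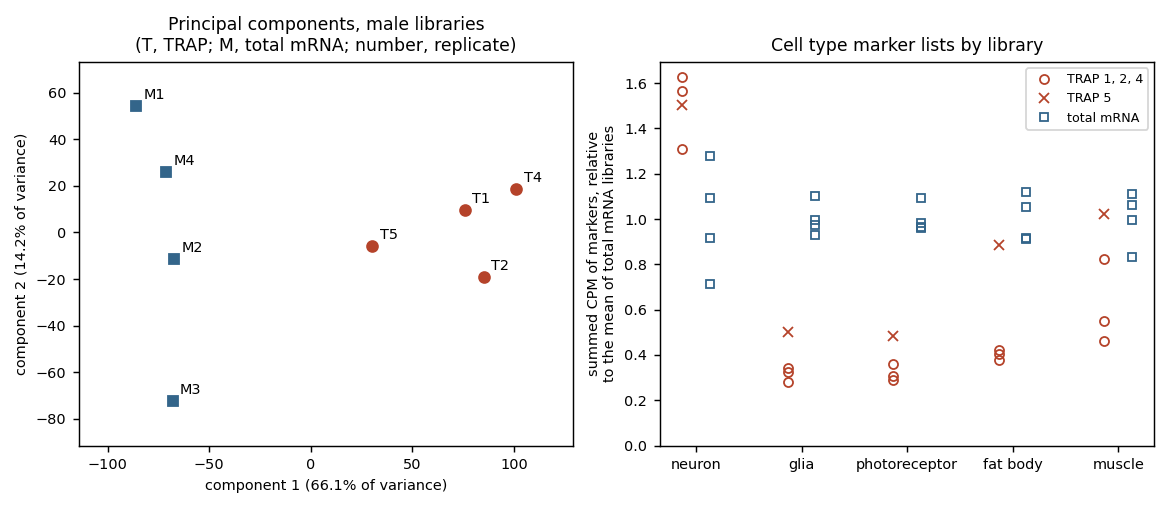
Left, the first 2 principal components of the 8 male libraries, holding 66.1% and 14.2% of the variance, with TRAP (T) as circles and total mRNA (M) as squares. Right, the summed CPM of each cell type marker list, divided by the mean of the total mRNA libraries, for each library, with TRAP to the left of total mRNA. TRAP replicate 5 sits at 30.4 on the first component, between the other TRAP libraries and total mRNA, and is the highest TRAP library for glia, photoreceptor, fat body and muscle lists. Most of the muscle sum in TRAP (474 to 1046 CPM) is Msp300, with 298, 518, 275 and 668 CPM in replicates 1, 2, 4 and 5.

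An exon was tested where it exceeded 2 CPM in at least 5 of the 8 libraries, and it was called at FDR under 0.2 by the exact test of edgeR, the threshold of the study. Of 8577 genes with a tested exon, 3636 (42.4%) had an exon called higher in TRAP and 3203 (37.3%) an exon called lower, 206 had both, and 77.3% had an exon called in either direction. Most genes were therefore called, and a share of members called is read below against these backgrounds. For functional classes each gene stands by its representative exon, the tested exon with the highest mean level over the 8 libraries. By that exon 38.2% of genes were higher and 30.6% lower, 8.56% were higher by at least 2-fold and 17.7% lower by at least 2-fold. The median log2 fold change over all genes was 0.14, with quartiles of -0.60 and 0.59. Scaled by library totals alone, the median over all genes was 0.44 and the calls were 5012 higher and 2398 lower, so that higher calls made up 67.6% of all calls in place of 53.2%. Fold changes below are on the TMM scale (trimmed mean of M values), and a shift of that size applies to all of them under library totals. Without TRAP replicate 5, 3769 genes were higher and 3216 lower.

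The gene that carries the driver was examined first. The representative fru exon (FBgn0004652, 3R 18414273 to 18417300 on dm6, coding and 3′ UTR) had 79.1, 99.4, 79.8 and 57.8 CPM in male TRAP, against 8.17, 16.5, 15.8 and 12.8 CPM in male total mRNA. The TRAP libraries lay above all total mRNA libraries, with a log2 fold change of 2.57 ± 0.24 (SE, FDR = 1.80e-21), and all 8 tested fru exons were higher. RpL10Ab, which encodes the ribosomal protein that carries the tag, was higher in all 5 tested exons. Its representative exon had 1552, 1987, 2275 and 1372 CPM in TRAP, against 1007, 996, 1139 and 756 CPM in total mRNA (log2 fold change 0.88 ± 0.22, SE, FDR = 2.56e-04). It overlaps CG32095 on the opposite strand, and reads of the transgene can be counted at the native gene.

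The largest increases belonged to secreted peptides. By the rule for named genes, the 15 highest genes had non-overlapping groups and at least 10 CPM in TRAP. Over all genes 23.4% had TRAP libraries all above and 24.2% had them all below the total mRNA libraries. Among the 15, 9 encode peptide hormones or neuropeptides (Ilp3, Ilp2, Ilp5, Hug, Capa, Dh44, NPF, Crz and FMRFa) and Tdc2 and Vmat serve monoamine neurons. The others were CG8401 and CG12239, which have no name beyond their number, the small heat shock gene Hsp23 and Crys, which encodes the crystallin of the fly lens. Ilp5, Tdc2 and Crys averaged 2.04, 1.77 and 1.59 CPM in total mRNA. They passed the filter only because all of their TRAP libraries exceeded 2 CPM.

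The insulin-like peptides made in neurosecretory cells of the brain stood highest. Ilp2 (3L 9800000 to 9800440) had 1181, 1427, 1850 and 1165 CPM in TRAP, against 28.8, 82.1, 66.2 and 36.5 CPM in total mRNA (log2 fold change 4.72 ± 0.34, SE, FDR = 3.39e-40). Ilp3 had 106, 131, 155 and 106 CPM in TRAP, against 3.15, 6.86, 6.26 and 2.59 CPM in total mRNA (4.73 ± 0.31, FDR = 1.15e-45). Ilp5 had 46.8, 55.4, 61.3 and 25.7 CPM in TRAP, against 1.60, 3.36, 1.95 and 1.28 CPM in total mRNA (4.53 ± 0.32, FDR = 2.26e-37). In all 3 genes the lowest TRAP library lay far above the highest total mRNA library, an order that the rule for named genes required. Ilp6, known for its expression in fat body, went the other way, with 8.94, 9.17, 6.79 and 12.9 CPM in TRAP, against 19.3, 23.6, 37.6 and 26.6 CPM in total mRNA (-1.50 ± 0.23, FDR = 2.92e-08). The remaining 4 insulin-like genes of the files were below the filter. Ilp5 passed the filter only because all of its TRAP libraries exceeded 2 CPM. Leaving out any of them, such as TRAP replicate 5, took it below the filter, and the 2 others were then higher.

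Neuropeptide precursors, which are cut into short signalling peptides, rose as a class. Of 41 in the files 26 were tested, 21 were higher (19 by at least 2-fold) and 3 lower, with a median log2 fold change of 1.72 against 0.14 over all genes. Without TRAP replicate 5 it was 1.85, with 21 higher and 4 lower. Hug, the precursor of pyrokinins that act in feeding, had 618, 810, 781 and 586 CPM in TRAP, against 19.4, 45.9, 40.6 and 15.8 CPM in total mRNA (4.52 ± 0.33, SE, FDR = 6.38e-37). Capa, whose peptides act on renal tubules, averaged 301 ± 60.7 CPM in TRAP, against 21 ± 6.49 CPM in total mRNA (n = 4 each, SD; log2 fold change 3.85). Dh44, a diuretic hormone of the corticotropin-releasing factor family, had 175, 187, 204 and 114 CPM in TRAP, against 12.0, 24.1, 20.7 and 15.3 CPM in total mRNA (3.24 ± 0.26, FDR = 1.50e-30). In each of these genes TRAP replicate 5 was the lowest TRAP library. It lay above every total mRNA library, which the rule for named genes required.

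NPF, the fly relative of neuropeptide Y, had 69.6, 78.4, 70.2 and 51.9 CPM in TRAP, against 5.2, 10.0, 9.88 and 6.47 CPM in total mRNA (3.10 ± 0.24, SE, FDR = 3.47e-31). Crz, the precursor of corazonin, had 64.1, 75.6, 78.4 and 38.8 CPM in TRAP, against 8.62, 10.6, 5.57 and 7.61 CPM in total mRNA (2.98 ± 0.25, FDR = 9.39e-26). Further members that were at least 2-fold higher included Proc (2.62), Dsk (2.49), Dh31 (2.47), Ms (2.11), AstC (1.96), sNPF (1.72) and Mip (1.30), while Tk rose by 0.85 on the log2 scale. These members were named after their values were seen, apart from Tk. The 3 members that fell were Pdf (-1.34), CCHa2 (-1.67) and Nplp3 (-2.12). Pdf, the output peptide of the clock neurons, had 22.7, 21.8, 17.9 and 20.0 CPM in TRAP, against 45.1, 60.5, 63.4 and 39.6 CPM in total mRNA, with no overlap between the groups (FDR = 4.40e-09). CCHa2 is known as a peptide of gut and fat body that acts on insulin-producing cells, and the function of Nplp3 is not well known.

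Genes that process and release peptides were also higher. Of 13 tested, 9 were higher (6 by at least 2-fold) and 2 lower, with a median of 0.93 (1.03 without TRAP replicate 5). The prohormone convertase gene amon had 148, 132, 119 and 104 CPM in TRAP, against 35.2, 59.6, 70.2 and 40.1 CPM in total mRNA (1.29 ± 0.23, SE, FDR = 6.64e-07). Sytbeta (1.99) and 7B2 (1.81), a helper of the convertase, were the highest. Phm, which amidates peptides, was not called (0.10 ± 0.18, SE, FDR = 0.724). Pal1 was lower (-0.74), although its most 3′ tested exon had a log2 fold change of 0.05 and was not called.

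Receptors for these peptides moved less than the peptides. Of 40 peptide hormone receptors in the files 28 were tested, 13 were higher and 5 lower, with a median of 0.38, and without TRAP replicate 5 there were 11 higher and 6 lower. CCKLR-17D3, a receptor for drosulfakinin, was the highest member, with 9.27, 10.4, 9.58 and 9.44 CPM in TRAP, against 3.60, 2.83, 3.69 and 2.68 CPM in total mRNA (1.60 ± 0.20, SE, FDR = 1.32e-11). AkhR, the receptor for adipokinetic hormone in fat body, was the lowest (-1.67). The insulin receptor gene InR was not called (-0.29), and Pdfr was lower (-0.73), but not in its most 3′ tested exon (0.06).

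**Figure D2:**
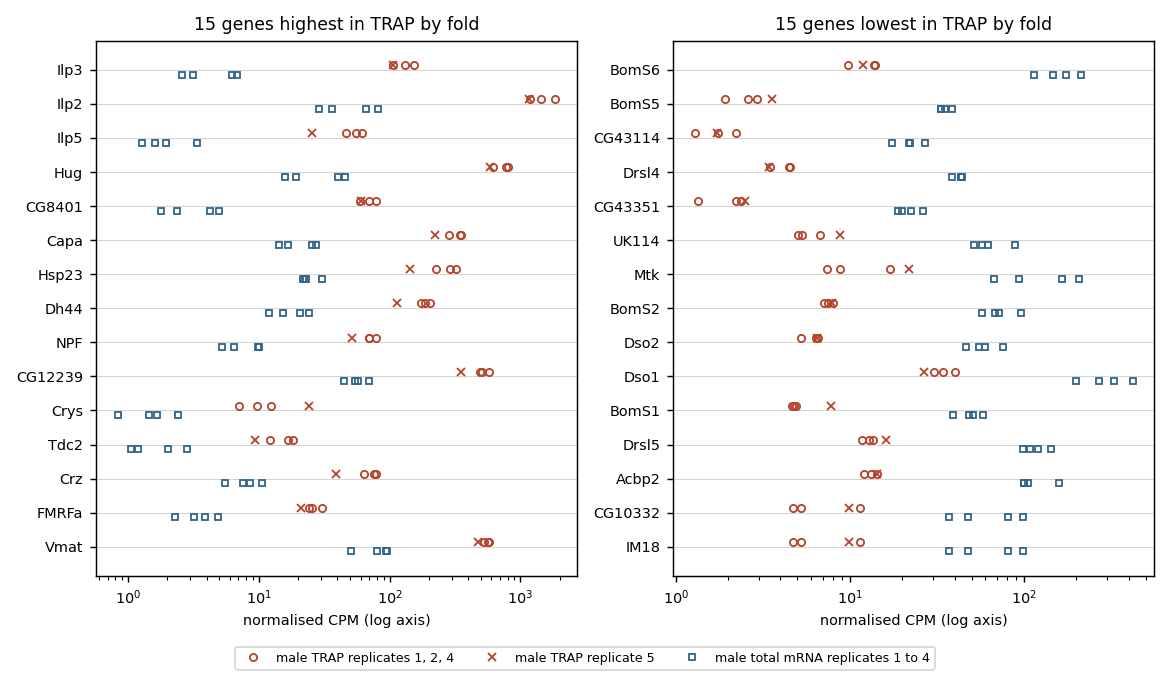
Normalised CPM (log axis) of the representative exon in each male library for the 15 genes with the highest (left) and the 15 with the lowest (right) log2 fold change under the rule for named genes, with TRAP above total mRNA in each row. Crosses mark TRAP replicate 5. The groups do not overlap in any row, which the rule required, and Ilp2 had 1165 to 1850 CPM in TRAP.

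Genes of monoamine neurons moved in both directions. Of 12 tested, 7 were higher (6 by at least 2-fold) and 3 lower, with a median of 1.16. Without TRAP replicate 5 Tdc2 fell below the filter, and the median of the remaining members was 0.94, with 6 higher. For tyramine and octopamine, the synthetic enzyme genes Tdc2 and Tbh were both higher. Tbh had 62.5, 64.5, 62.5 and 45.4 CPM in TRAP, against 5.88, 10.5, 12.3 and 8.62 CPM in total mRNA (2.66 ± 0.23, SE, FDR = 1.04e-24). Vmat, which loads all monoamines into vesicles, had 528, 580, 571 and 478 CPM in TRAP, against 50.9, 96.4, 93.8 and 79.6 CPM in total mRNA (2.75 ± 0.23, FDR = 2.31e-29), and its exon overlaps CG13330 on the opposite strand. Trhn, the neuronal tryptophan hydroxylase of serotonin synthesis, rose by 2.11 on the log2 scale. The dopamine genes were not alike. ple, the tyrosine hydroxylase of dopamine synthesis, had 24.7, 24.3, 21.2 and 18.9 CPM in TRAP, against 15.4, 27.9, 28.2 and 17.5 CPM in total mRNA, groups that overlapped, with a log2 fold change of 0.00 ± 0.21 (SE). Ddc, shared by dopamine and serotonin synthesis, was at 0.01 ± 0.19 (SE). Neither was called, whereas DAT, the dopamine transporter gene, rose by 1.43. Hn (-1.84), Pu (-0.90) and Tdc1 (-0.85), a second tyrosine decarboxylase gene, fell.

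All 6 genes that define fast transmitters were higher, with a median of 0.95 (0.94 without TRAP replicate 5). Gad1, the GABA synthetic enzyme, had 491, 501, 543 and 367 CPM in TRAP, against 106, 173, 162 and 144 CPM in total mRNA (1.70 ± 0.21, SE, FDR = 2.71e-13). ChT, which takes choline into cholinergic terminals, rose by 1.75, and VGlut, the vesicular glutamate transporter, by 0.62 on the log2 scale. ChAT and VAChT (0.95 each) share exons, cannot be told apart by these counts and are 1 measurement, which sets the class median. The 2 members with no overlapping gene were higher as well (median 1.25). Genes of the GABAergic, cholinergic and glutamatergic kinds were thus all represented among the increases.

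The machinery of the synaptic vesicle and the active zone rose nearly as a whole. Of 29 genes tested, 27 were higher (16 by at least 2-fold) and 0 lower, with a median of 1.03 (1.11 without TRAP replicate 5), and 25 of 29 had groups that did not overlap. The vesicle fusion gene comt had 296, 340, 345 and 214 CPM in TRAP, against 59.9, 78.6, 91.4 and 64.6 CPM in total mRNA (2.02 ± 0.22, SE, FDR = 2.97e-17). Snap25 (1.96), Rab3 (1.67) and the scaffold gene brp (1.03) were also higher. The representative exons of nSyb (0.22) and cpx (-0.06) were not called. In both genes other exons were called in opposite directions, 3 higher and 7 lower of 17 in nSyb, and 2 higher and 10 lower of 24 in cpx. The neuron marker list, which shares some of these genes, had 8 of 11 higher and 1 lower (median 0.71). The lower marker, Rbp9, had 293, 318, 268 and 372 CPM in TRAP, against 419, 545, 574 and 491 CPM in total mRNA (-0.70 ± 0.19, SE, FDR = 0.00151). Among the 8 markers with no overlapping gene 6 were higher and 0 lower (median 0.91).

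Cell-surface families of partner recognition showed the same breadth. Of 30 dpr and DIP genes, immunoglobulin proteins that bind each other across synapses, 29 were higher (14 by at least 2-fold) and 0 lower, with a median of 0.94. Of 22 Beat and Side genes, 21 were higher (8 by at least 2-fold) and 0 lower, with a median of 0.90. The highest members were DIP-theta (1.72 ± 0.33, SE) and beat-Ib (1.57 ± 0.20, SE). beat-Ib had 20.9, 25.3, 21.1 and 18.9 CPM in TRAP, against 5.57, 7.67, 9.32 and 6.60 CPM in total mRNA (FDR = 9.97e-12). The members not called were DIP-epsilon (-0.03) and side-V (0.21). Without TRAP replicate 5, 29 and 21 members were called higher as well. Other axon guidance and synaptic partner genes were more mixed, with 29 of 50 higher and 6 lower and a median of 0.53. Nrx-1, the presynaptic neurexin, rose by 1.25, whereas Sema5c fell by 1.24 on the log2 scale.

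Among receptors for small transmitters, 21 of 27 acetylcholine, GABA and glutamate receptor genes were higher and 2 lower (median 0.71), and 13 of 16 amine receptor genes were higher and 2 lower (median 0.89). Rdl, the main ionotropic GABA receptor, had 426, 448, 303 and 418 CPM in TRAP, against 113, 217, 311 and 172 CPM in total mRNA (0.97 ± 0.26, SE, FDR = 0.0012), with TRAP replicate 4 just below total mRNA replicate 3. Oct-TyrR (1.30) and mAChR-A (1.15) were the highest of their lists. nAChRbeta3 (-1.20), whose exon overlaps Ets21C, and 5-HT2A (-0.79) were the lowest. Voltage-gated and potassium channels had 20 of 33 genes higher and 4 lower (median 0.54). The sodium channel gene para rose by 1.02, and the inward rectifier genes Irk1 (-0.83), Irk2 (-1.16) and Irk3 (-1.54) all fell.

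**Figure D3:**
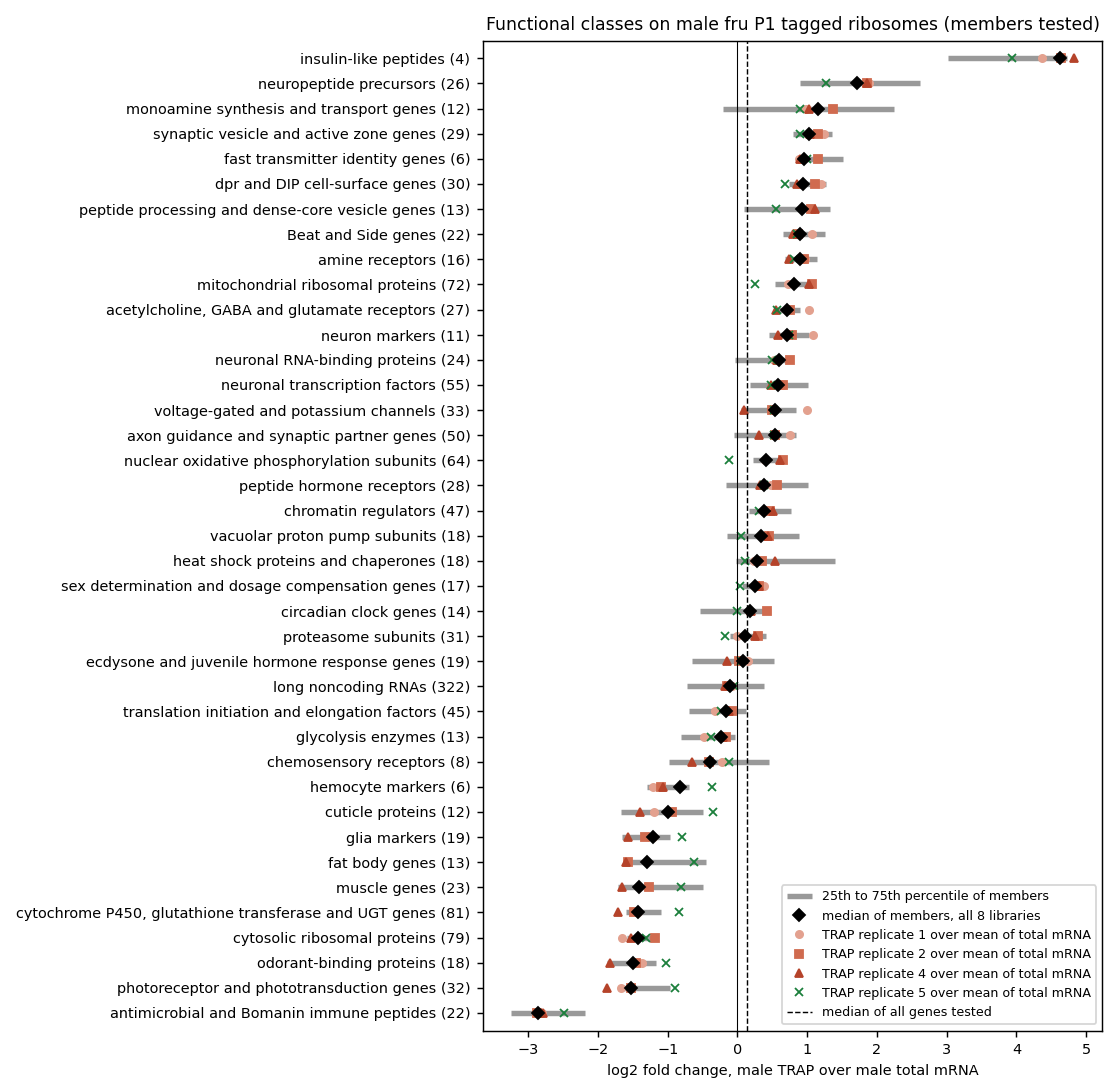
Median log2 fold change (TRAP over total mRNA) of the tested members of each of 39 functional classes, ordered by the median (black diamonds), with the 25th to 75th percentile of members as bars. Coloured symbols give the class median of each TRAP library over the mean of total mRNA, and the dashed line is the median of all genes (0.14). Neuropeptide precursors stand at 1.72 and immune peptides at -2.87, and TRAP replicate 5 (crosses) lies closer to 0 than the other TRAP libraries in glia, fat body and photoreceptor classes.

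Transcription factors that specify neurons had 33 of 55 genes higher (14 by at least 2-fold) and 5 lower, with a median of 0.58, and 29 higher and 7 lower without TRAP replicate 5. After fru the highest was Fer1, a basic helix-loop-helix factor gene, with 39.3, 50.1, 54.8 and 30.2 CPM in TRAP, against 6.34, 7.24, 8.70 and 8.36 CPM in total mRNA (2.51 ± 0.22, SE, FDR = 1.91e-24). It was followed by the homeobox genes Ptx1 (2.33), unc-4 (2.02), Rx (1.93) and otp (1.87). svp, an orphan nuclear receptor gene, was the lowest (-1.22). The homeobox gene en was called higher (0.48, FDR = 0.124) at a low level, with 2.92, 3.03, 2.94 and 2.05 CPM in TRAP, against 1.69, 2.30, 2.02 and 1.85 CPM in total mRNA. With exon counts summed over the gene, en had a log2 fold change of -0.21 and was not called.

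Sex determination and dosage compensation genes stayed near the background, with 5 of 17 higher and 2 lower (median 0.25). Without TRAP replicate 5, 8 were higher. Apart from fru, those higher were snf (1.0), vir (0.86), msl-3 (0.61) and tra (0.39). dsx, the other sex-specific transcription factor gene of the pathway, had 6.02, 5.03, 3.74 and 3.74 CPM in TRAP, against 5.52, 9.88, 9.46 and 7.83 CPM in total mRNA (-0.82 ± 0.24, SE, FDR = 0.00444), and its exon overlaps lds on the opposite strand. lncRNA:roX2, an RNA of the male dosage compensation complex, was lower (-0.93), with 22.7, 8.33, 5.50 and 9.21 CPM in TRAP, against 19.9, 25.3, 27.3 and 14.8 CPM in total mRNA, so that TRAP replicate 1 lay within the total mRNA libraries. Sxl was not called (-0.06).

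Chromatin regulators and RNA-binding proteins of neurons leaned upwards by small amounts. Of 47 chromatin regulators, 27 were higher (4 by at least 2-fold) and 7 lower (median 0.38). Iswi, a nucleosome remodelling ATPase gene, had 24.0, 32.0, 28.5 and 20.6 CPM in TRAP, against 11.2, 9.59, 11.1 and 9.28 CPM in total mRNA (1.35 ± 0.19, SE, FDR = 8.21e-10). Gcn5 (1.19), Sce (1.13) and Pc (1.01) were the others past 2-fold, and Nurf-38 (-1.18) was the lowest. trx was called (0.34) but was not called with RLE size factors (FDR = 0.206) or without TRAP replicate 5 (FDR = 0.303). Of 24 neuronal RNA-binding protein genes, 15 were higher and 5 lower (median 0.60). bru3 (1.13) was the highest and mbl (-1.57) the lowest, but the most 3′ tested exon of mbl had 0.39 and was not called.

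Cytosolic and mitochondrial ribosomal protein genes moved in opposite directions. All 79 cytosolic members tested, of 84 in the files, were lower, 72 of them by at least 2-fold, and all 79 had groups that did not overlap, with a median of -1.43 (-1.48 without TRAP replicate 5). RpL10Ab was not in this list because of its transgene. RpS20, the lowest member, had 101, 105, 83.7 and 124 CPM in TRAP, against 525, 442, 469 and 352 CPM in total mRNA (-2.11 ± 0.20, SE, FDR = 4.37e-21). RpL3, the least changed, had 623, 909, 741 and 794 CPM in TRAP, against 1261, 1163, 1596 and 1035 CPM in total mRNA (-0.72 ± 0.21, FDR = 0.00184). Over the list the summed CPM was 27088 to 37411 in TRAP and 65926 to 102974 in total mRNA.

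Of 72 mitochondrial ribosomal protein genes, by contrast, 59 were higher (21 by at least 2-fold) and 1 lower, with a median of 0.81. The per-library class medians were 0.72, 1.07, 1.02 and 0.26 in TRAP replicates 1, 2, 4 and 5, and without replicate 5 the class median was 0.95, with 64 higher and 0 lower. mRpL54 had 14.1, 18.8, 16.3 and 9.21 CPM in TRAP, against 5.57, 5.80, 4.24 and 3.96 CPM in total mRNA (1.57 ± 0.24, SE, FDR = 6.67e-09). The lower member, mRpL45 (-0.31, FDR = 0.173), was not called without TRAP replicate 5 (FDR = 0.210). Nuclear subunits of oxidative phosphorylation followed the mitochondrial ribosome with smaller changes, with 40 of 64 higher, 1 of them (ND-MWFE, which overlaps TppII) by at least 2-fold, and 0 lower. That count rested on single libraries, with 49 higher without TRAP replicate 5 (median 0.55), 22 without TRAP replicate 2 and 21 without total mRNA replicate 4, and 0 lower in each case. The median over all 8 libraries was 0.41 and their class medians were 0.39, 0.65, 0.61 and -0.13 in TRAP replicates 1, 2, 4 and 5, so that replicate 5 alone lay below 0.

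Translation factors had 20 of 45 lower and 9 higher, with a median of -0.16, which turned to 0.14 under library totals. The elongation factor genes eEF1beta (-2.11), eEF1alpha1 (-1.98) and eEF5 (-1.68) were the lowest. eEF1alpha1 had 1333, 1403, 1307 and 2551 CPM in TRAP, against 6776, 6336, 7023 and 5806 CPM in total mRNA (FDR = 2.26e-14). eIF4EHP, a cap-binding protein gene, was the highest (0.88), but its most 3′ tested exon had -0.38 and was not called.

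**Figure D4:**
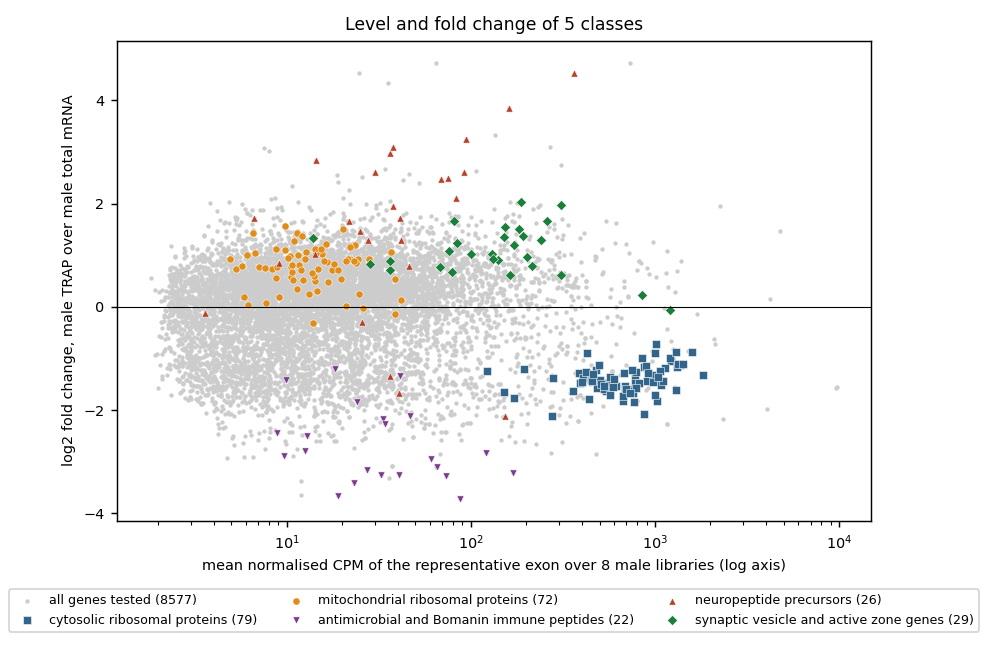
Log2 fold change (TRAP over total mRNA) against the mean normalised CPM of the representative exon over the 8 male libraries (log axis, not divided by exon length) for 8577 genes in grey and 5 classes in colour. The 79 cytosolic ribosomal protein genes all lie below 0, 69 of the 72 mitochondrial ribosomal protein genes lie above 0, and the 22 immune peptide genes all lie below 0.

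Several gene pairs that encode alternative forms of 1 protein parted, and they were named after their values were seen, apart from Vha68-1, Vha68-2, eEF1alpha1, Gapdh2 and Hex-C. Of 18 tested subunit genes of the vacuolar proton pump, 9 were higher and 4 lower (median 0.34). Within that list Vha68-1 had 369, 441, 387 and 269 CPM in TRAP, against 67.7, 111, 121 and 84.8 CPM in total mRNA (1.93 ± 0.23, SE, FDR = 2.14e-14). Vha68-2 had 12.7, 12.8, 12.1 and 17.4 CPM in TRAP, against 43.2, 44.2, 43.5 and 47.9 CPM in total mRNA (-1.70 ± 0.18, FDR = 3.41e-16). Neither gene had overlapping groups, and both encode the catalytic subunit. In the same way Vha100-1 was higher (0.89) and Vha100-2 lower (-1.06), eEF1alpha2 higher (0.63) and eEF1alpha1 lower (-1.98), and Gapdh2 higher (0.43) and Gapdh1 lower (-0.81). Gapdh2 was not called without TRAP replicate 2 or 4 or without total mRNA replicate 2 or 4 (FDR = 0.201 to 0.275). Gene pairs that did not part were not counted. Hex-A was not called (-0.04) and Hex-C, a hexokinase gene, fell by 1.84 on the log2 scale. Such copies share sequence, and only uniquely mapped reads were counted.

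Glycolysis enzymes, proteasome subunits, clock genes and hormone response genes had medians nearer to 0. Of 13 glycolysis genes 2 were higher and 6 lower (0 higher without TRAP replicate 2 or 4 or total mRNA replicate 2 or 4), with a median of -0.23 that turned to 0.07 under library totals. Of 31 proteasome genes 10 were higher and 4 lower, none by 2-fold (median 0.11), and 6 were higher without total mRNA replicate 4. Of 14 clock genes 4 were higher and 4 lower. The feedback genes per and tim moved oppositely, with 14.4, 17.1, 19.7 and 19.1 CPM of per in TRAP and 10.9, 8.97, 14.6 and 10.4 CPM in total mRNA (0.65 ± 0.19, SE, FDR = 0.00602), and a log2 fold change of -0.94 ± 0.27 (SE) for tim. Clk (-0.98) and cry (-1.27) were also lower. Of 19 ecdysone and juvenile hormone genes 7 were higher and 7 lower, with the transcription factor gene br (1.33) at the top and the juvenile hormone epoxide hydrolase gene Jheh1 (-1.59) at the bottom. Among the 9 of them with no overlapping gene, 6 were higher and 1 lower (median 0.46).

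Heat shock and chaperone genes were spread widely, with 8 of 18 higher (7 by at least 2-fold) and 4 lower, and 10 higher without TRAP replicate 5. The small heat shock gene Hsp23 had 290, 225, 324 and 144 CPM in TRAP, against 21.8, 30.4, 22.8 and 22.6 CPM in total mRNA (3.33 ± 0.25, SE, FDR = 1.06e-32). Hsp67Ba (2.40), Hsp26 (1.66) and the mitochondrial chaperonin gene Hsp60A (1.45) were also higher. The increase was not shared by the whole family, since Hsc70-1 (-1.50), l(2)efl (-1.17) and Hsc70-3 (-1.13) fell and Hsp83 (0.19) was not called. Hsp70Bb (1.21) and Hsp70Bc (1.23) are near-identical copies, so their separate values are uncertain.

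The strongest decreases were in immune peptides. All 22 antimicrobial and Bomanin genes tested, of 36 in the files, were lower, and all by at least 2-fold, with a median of -2.87 (-3.01 without TRAP replicate 5) against 0.14 over all genes. They made up 9 of the 15 lowest named genes (BomS6, BomS5, Drsl4, Mtk, BomS2, Dso2, Dso1, BomS1 and Drsl5). BomS6, a short secreted peptide of the Toll response, had 13.8, 13.9, 9.81 and 11.9 CPM in TRAP, against 214, 175, 115 and 147 CPM in total mRNA (-3.72 ± 0.23, SE, FDR = 5.67e-47). Mtk, which encodes metchnikowin, had 8.79, 7.37, 17.0 and 22.0 CPM in TRAP, against 165, 67.5, 93.6 and 207 CPM in total mRNA (-3.27 ± 0.38, FDR = 5.61e-15). AttA, the least changed member, had 7.98, 4.64, 9.62 and 21.6 CPM in TRAP, against 25.7, 16.5, 25.2 and 34.1 CPM in total mRNA (-1.21 ± 0.35, FDR = 0.00274), and TRAP replicate 5 lay within the total mRNA libraries.

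The remaining genes among the 15 lowest were CG43114, CG43351, UK114, Acbp2, CG10332 and IM18, from -3.65 to -3.08. Acbp2, an acyl-CoA binding protein gene, had 13.2, 14.3, 12.1 and 14.2 CPM in TRAP, against 159, 101, 100 and 105 CPM in total mRNA (-3.11 ± 0.21, SE, FDR = 1.18e-40). CG10332 and IM18 share 1 exon entry with identical counts and are 1 measurement. CG43114 overlaps nompA on the opposite strand.

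Markers of other head cells were mostly lower. All 19 glia markers were lower (14 by at least 2-fold) with a median of -1.21, and without TRAP replicate 5 the median was -1.51, with 18 lower, since Gli was then below the filter. Gs2, the glial glutamine synthetase, had 145, 142, 138 and 236 CPM in TRAP, against 543, 499, 536 and 527 CPM in total mRNA (-1.67 ± 0.21, SE, FDR = 7.09e-13). repo, the glial transcription factor gene, had 13.3, 13.6, 13 and 19.5 CPM in TRAP, against 40.4, 36.0, 38.8 and 43.4 CPM in total mRNA (-1.41 ± 0.18, FDR = 5.51e-11). TRAP replicate 5 was the highest TRAP library in both and lay below every total mRNA library. Glial mRNA was thus lower in TRAP but remained well above the floor, and its source was not tested.

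Of 32 photoreceptor and phototransduction genes, 27 were lower (24 by at least 2-fold) and 1 higher, with a median of -1.52 (-1.77 without TRAP replicate 5). ninaE, the main rhodopsin, had 3690, 4841, 4012 and 6744 CPM in TRAP, against 17859, 13519, 11166 and 15022 CPM in total mRNA (-1.58 ± 0.25, SE, FDR = 5.76e-10). Gbeta76C (-2.62), ninaC (-2.28) and inaC (-2.23) were the lowest. The higher member, Galphaq (0.57), rested on 1 exon that overlaps CG45086. In 10 of its 14 tested exons Galphaq was lower, and with counts summed over the gene it had -0.84 (FDR = 6.67e-06).

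Muscle genes had 17 of 23 members lower (15 by at least 2-fold) and 1 higher (median -1.40). Mlc1, a myosin light chain gene, had 4.35, 5.41, 3.05 and 5.25 CPM in TRAP, against 32.1, 28.7, 16 and 18.9 CPM in total mRNA (-2.41 ± 0.25, SE, FDR = 7.28e-17). The higher member, Msp300 (0.55, FDR = 0.114), was not called without TRAP replicate 5 (0.27, FDR = 0.415). Fat body genes had 10 of 13 lower and 0 higher (median -1.30), and all 13 were lower without TRAP replicate 5 (median -1.80). Yp1, a yolk protein, had 5.40, 52.1, 88.0 and 530 CPM in TRAP, against 12.9, 290, 438 and 114 CPM in total mRNA, which overlapped widely (-0.34 ± 0.90, SE, FDR = 0.787, and -2.14 without TRAP replicate 5). In each of replicates 1, 2 and 4, which both fractions have, the TRAP value was the lower, and with the replicate number as a block Yp1 was called lower (-1.37, FDR = 0.00314). Yp2 also varied widely, with 1.77 to 197 CPM in TRAP and 3.38 to 154 CPM in total mRNA. Hemocyte markers had 5 of 6 lower (median -0.83, and -1.10 without TRAP replicate 5), and Pxn (1.13), whose exon overlaps CG16986, was higher.

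Detoxification and secreted binding proteins fell together with these. Of 150 cytochrome P450, glutathione transferase and UGT genes in the files 81 were tested, 74 were lower (65 by at least 2-fold) and 2 higher, with a median of -1.43 (-1.66 without TRAP replicate 5). GstE9 (-2.42), which overlaps imd, was the lowest, and Cyp4g1 (-2.31), an enzyme of cuticular hydrocarbon synthesis, varied widely, with 5.78, 8.44, 29.7 and 20.1 CPM in TRAP, against 22.0, 53.9, 99.1 and 143 CPM in total mRNA. GstE13 (1.25) and Cyp4s3 (1.03), both overlapping other genes, were the 2 that were higher. Of 18 odorant-binding protein genes tested, 17 were lower and 1 (Obp57d) higher, with a median of -1.50 (-1.54 and 15 lower without TRAP replicate 5). Obp99b had 64.6, 55.5, 45.2 and 84.0 CPM in TRAP, against 522, 308, 430 and 302 CPM in total mRNA (-2.65 ± 0.25, SE, FDR = 1.36e-22). Of 12 cuticle protein genes 9 were lower and 2 higher, led by TwdlG (1.31). Without TRAP replicate 5, 7 cuticle genes were lower and their median was -1.31, against -1.0 with it.

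Chemosensory receptors were mostly below the filter. Of 189 odorant, gustatory, ionotropic and pickpocket receptor genes of the list only 8 were tested, of which 2 were higher and 3 lower (median -0.40). With exon counts summed per gene 7 were higher and 4 lower (median 0.42), so that no direction of the class is given. Among receptors named for sensory neurons that express fru P1, ppk23 had 1.15, 0.576, 0.153 and 0.445 CPM in TRAP, against 0, 0.0959, 0.139 and 0.0440 CPM in total mRNA. Or47b had 0.143, 0.0768, 0.763 and 0.312 CPM in TRAP, against 0, 0, 0 and 0.440 CPM in total mRNA. Most of these total mRNA values were within the floor of 0.118 to 0.164 CPM. ppk23 in TRAP replicate 4 and Or47b in TRAP replicates 1 and 2 also lay under 0.164 CPM. For ppk25 the order was reversed, since its TRAP mean (0.193 CPM) was below its total mRNA mean (0.381 CPM). The same means were 0.0302 and 0.0220 CPM for Ir84a, and 0.158 and 0.0174 CPM for Or67d. None of these receptors passed the filter, so their differences were not tested.

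Long noncoding RNAs had 83 of 322 tested members higher and 124 lower, of 2645 in the files, with a median of -0.11 that turned to 0.18 under library totals. Only 33 of the 322 had a representative exon that overlapped no exon of another gene, and of these 7 were higher and 13 lower. The highest, asRNA:CR43481 (2.46), lies opposite Hsp67Ba, and the lowest, asRNA:CR44054 (-2.58), lies opposite CG15199 and ssp7. The kit kept no strand, so reads of such pairs cannot be told apart. lncRNA:Hsromega, a stress RNA with its own exons apart from a microRNA, was not called (-0.05). It had 234, 232, 204.7 and 244 CPM in TRAP, against 204, 237, 314 and 192 CPM in total mRNA.

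**Figure D5:**
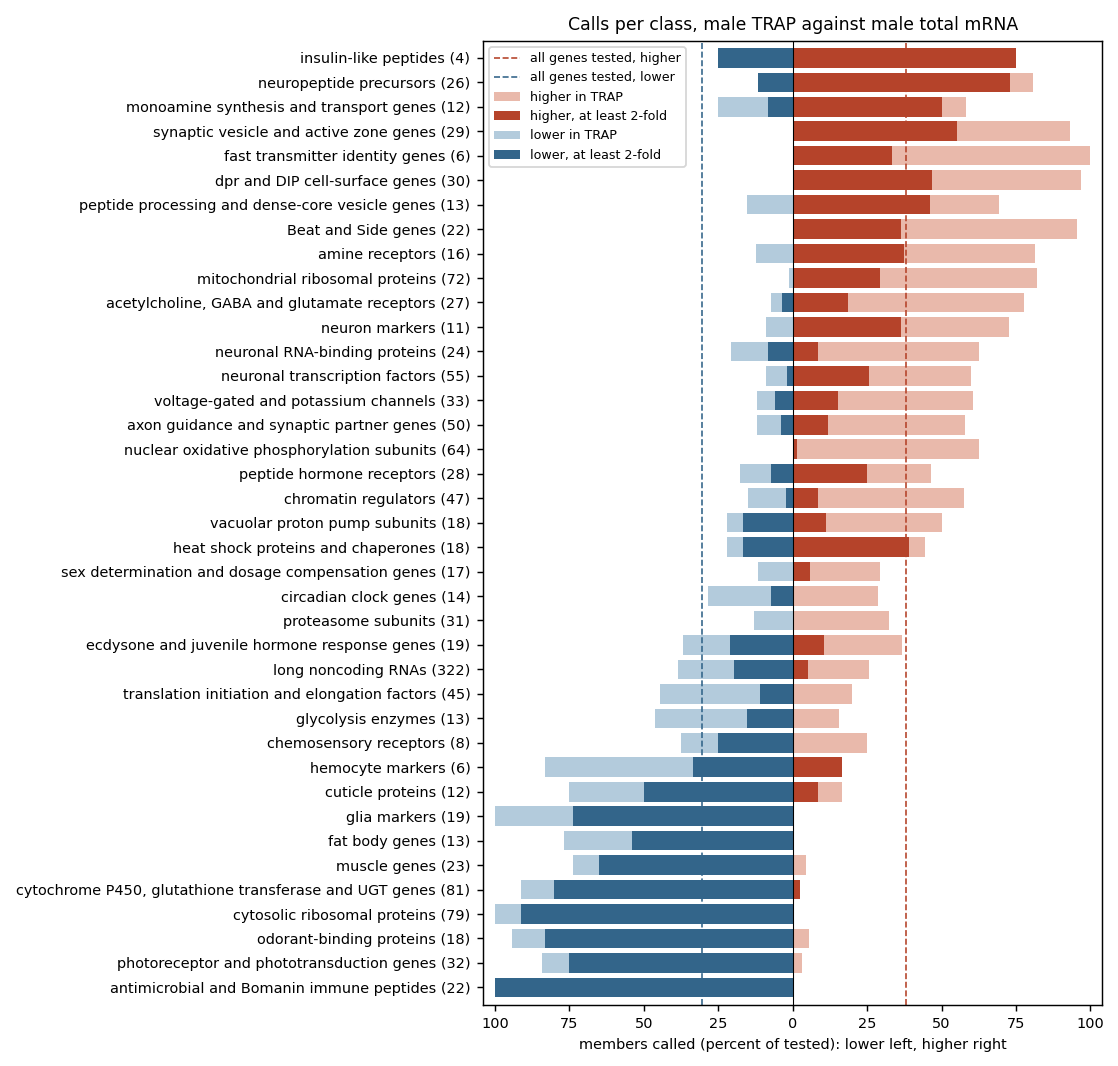
Percent of the tested members of each class whose representative exon was called lower (left, blue) or higher (right, red) in TRAP, with the part past 2-fold in the darker shade. Dashed lines give the same percent over all genes tested, 30.6% lower and 38.2% higher. Synaptic vesicle, dpr and DIP, and Beat and Side classes have 0 members lower, and glia, cytosolic ribosomal protein and immune peptide classes have 0 members higher.

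The size of the male TRAP effect was compared with that in females by the interaction of sex and fraction. It was called in 14 of 8385 genes (0.167%), and by the representative exon in 11 of 8350 (0.132%). Among the genes named by the rule, 6 peptide genes were called in at least 1 exon, all with a larger effect in males. The rule named genes in part by a large fold change in these male libraries, which favours that direction. Of the 6, 5 were called in the representative exon, to which the next values belong. The log2 fold change of Crz was 2.98 in males and -0.02 in females (FDR of the difference 0.00115), with 64.2 ± 18 CPM in male TRAP and 8.09 ± 2.08 CPM in male total mRNA, beside 6.87 ± 1.81 CPM in female TRAP and 6.96 ± 1.81 CPM in female total mRNA (n = 4 each, SD). That of Dh44 was 3.24 in males and 1.34 in females (FDR = 0.0495), and that of Ilp3 was 4.73 and 2.53 (FDR = 0.0495). Ilp2 and Ilp5 were called as well (FDR = 0.120 and 0.192). Capa was called in another exon (FDR = 0.120) and not in its representative exon (FDR = 0.316). The other 8 genes were named after their values were seen. CG5160, ITP, CG42394 and cv-c had the larger log2 fold change in males, and CG6999, CG32706, Orcokinin and SerT in females. ITP (0.79 in males, -0.72 in females) and Orcokinin (-0.29 and 0.83) are peptide genes too, so that peptide genes were called in both directions. No called gene belonged to the synaptic vesicle, dpr and DIP, Beat and Side, ribosomal, glia or immune classes. At 0.132% of all genes called, this does not show equal effects in the sexes. For synaptic vesicle, dpr and DIP, and Beat and Side genes the female medians were 1.59, 1.64 and 1.66, against 1.03, 0.94 and 0.90 in males. They were -1.63 and 1.09 for cytosolic and mitochondrial ribosomal proteins (-1.43 and 0.81 in males). For glia and immune classes they were -1.41 and -2.86 (-1.21 and -2.87 in males). These differences were not tested. Scaled by library totals alone, the interaction was called in 1636 genes, and without TRAP replicate 1 or 2 in 8.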

How the data were processed

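The deposited files hold raw read counts per exon, which the authors made with featureCounts from uniquely mapped single-end reads aligned with STAR 2.7.2a to dm6. The strand setting of the counting is not given in the sources used here, and the library kit is not directional. A second deposited table of the same libraries was not used. Symbols and exon positions came from the reference tables (BDGP6.54 annotation). Exons above 2 CPM in at least 5 of 8 male libraries were TMM-scaled and compared by edgeR 4.0.16 (R 4.3.3) with its exact test, as in the methods of the study, with Benjamini-Hochberg adjustment over 33155 exons and a threshold of FDR under 0.2. Standard errors and the interaction of sex and fraction came from the quasi-likelihood fit of edgeR. The code was tested on simulated counts. Each gene was represented by its tested exon of highest mean CPM.

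The 39 gene lists (4179 genes, 19 in more than 1 list, 11 names not matched) and the members were chosen with earlier results of these data known. No set test was run. Named were the 15 highest and 15 lowest genes among those called, without overlap and with at least 10 CPM in the higher group, the anchor genes and the extreme members of each list, and RpL10Ab. Further list members were given as examples after their values were seen. As alternatives, DESeq2 1.42.0, the quasi-likelihood test, a replicate block, RLE factors, library totals, other filters and thresholds, summed exon counts, the most 3′ exon, leaving out each library and, added after seeing the data, members without overlapping genes were tried.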

Additional observations from a re-analysis of the deposited data

Results flagged for a closer look

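Samples that stood apart from the other 3 of their group by Dixon's criterion were looked for in 424 groups, 346 of named genes and 78 of list sums, and 32 were found. Chance gives about 1 in 20 groups, and 17 of the 32 were male TRAP replicate 5.

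In normalised CPM, male TRAP replicate 5 stood above the other TRAP libraries for Yp1 (530 against 5.40 to 88.0), Yp2 (197 against 1.77 to 28.9), eEF1alpha1 (2551), trp (892), Gs2 (236), alrm (28.8), repo (19.5), Hml (12.8), Cyp6a2 (17.6), Hex-C (25.2), Sema5c (5.56), Vha68-2 (17.4), BomS1 (7.79) and the sum of fat body genes (2834). It stood below them for Tbh (45.4), en (2.05) and Vha55 (153). Other male TRAP samples were replicate 4 for Dso2 (5.27) and for the sum of peptide hormone receptors (186), and replicate 2 for Pal1 (6.37) and eIF4EHP (418).

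In male total mRNA, replicate 1 stood apart for Acbp2 (159), VhaSFD (45.5), fit (12.0), Hn (85.4) and Rpn5 (21.3), and replicate 2 for Hsp23 (30.4). Replicate 3 stood apart for Drsl4 (38.7), tim (38.5) and the sums of chemosensory receptors (85.1) and long noncoding RNAs (34321), and replicate 4 for Pxn (29.2). No explanation was tested for any of these samples.

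The TRAP effect differed between the sexes, by the interaction in the quasi-likelihood test of edgeR, in the representative exon of 5 named genes. The male minus female log2 fold change was 3.08 for Crz, 2.89 for Ilp2, 2.30 for Ilp3, 2.21 for Ilp5 and 2.0 for Dh44. Naming genes in part by their male fold change favours this direction.

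Signal above total mRNA also lay outside the tested exons. In 42 genes with no tested exon, an exon exceeded 2 CPM in all 4 male TRAP libraries and in 0 of the total mRNA libraries.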

How the results depend on the processing

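Scaled by library totals alone, the class medians of glycolysis enzymes (0.074), long noncoding RNAs (0.18) and translation factors (0.14) changed sign, and the interaction was called in 1636 genes, against 14. An added 2-fold bound left 926 genes higher and 1741 lower, and without a filter 5084 were lower. Leaving out 1 library gave 3109 to 3871 genes higher, 2897 to 3334 lower and 8 to 14 interaction genes, with 8 without male TRAP replicate 1, 8 without replicate 2 and 9 without replicate 4. At FDR under 0.05, 7 interaction genes were called. Total mRNA was the input of TRAP, but whether an equal replicate number marks 1 lysate is not given in the sources used here, and the deviations of same-numbered samples correlated weakly (0.057, 0.11 and 0.24), so the block was kept as an alternative. With a replicate block 4428 genes were higher, 3631 lower and 49 in the interaction, and every class median kept its sign. The block called Yp1 (-1.37) and Yp2 (-1.24) lower and Phm (0.30) and nSyb (0.32) higher, and lost the calls of trx (0.18) and mRpL45 (-0.24).

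Other medians changed sign as well. Chemosensory receptors, at -0.40, had 0.032 with a filter met in every library and 0.42 with summed exons, where ecdysone and juvenile hormone genes had -0.031. Medians of long noncoding RNAs (0.058) and translation factors (0.0058) did so without a filter. Leaving out 1 library gave -0.0082 to 0.26 for clock genes and -0.16 to 0.18 for ecdysone and juvenile hormone genes. Restriction to members with no overlapping gene, chosen after seeing the data, turned 0 medians but moved that of ecdysone and juvenile hormone genes to 0.46, against 0.073.

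Of named genes, only Galphaq was called in both directions (-0.84 summed). The rest changed sign without a call. Scaled by totals these were Ald1 0.075, PyK 0.098, lncRNA:Hsromega 0.26, InR 0.010, Sxl 0.25, DIP-epsilon 0.29, Yp2 0.074, ND-MNLL 0.14 and cpx 0.24. Under the replicate block they were Ald1 0.025, lncRNA:Hsromega 0.085, Sxl 0.18, DIP-epsilon 0.28 and cpx 0.13. Without a filter they were lncRNA:Hsromega 0.11, Sxl 0.11, DIP-epsilon 0.14, ND-MNLL 0.024 and cpx 0.11. In the most 3′ exon they were Pdfr 0.064, mbl 0.39, Pal1 0.053 and eIF4EHP -0.38, and with summed exons en -0.21 and ple -0.23. ple was also at -0.0092 with DESeq2 and with RLE factors and at -0.0043 with the stricter filter. Leaving out 1 library gave -2.14 to 0.27 for Yp1, -2.13 to 0.42 for Yp2, -0.25 to 0.14 for Sxl, -0.0060 to 0.24 for Phm, -0.15 to 0.12 for ple, -0.25 to 0.20 for DIP-epsilon, -0.15 to 0.10 for lncRNA:Hsromega and -0.24 to 0.041 for cpx. The cause was not tested. Of 189 chemosensory receptors 181 were below the filter and gave no value. In 64.7% of 4510 genes with at least 3 tested exons, the most 3′ exon had a higher log2 fold change than the most 5′ exon.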

Other observations

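Among the 42 genes above 2 CPM only in male TRAP, Cpr62Bc, a cuticle protein gene, averaged 7.16 CPM in TRAP, against 0.732 CPM in total mRNA, and Hr51, a nuclear receptor gene of mushroom body neurons, averaged 6.73 CPM in TRAP, against 1.09 CPM in total mRNA. CCHa1, a neuropeptide precursor, averaged 4.21 CPM in TRAP, against 1.31 CPM in total mRNA. The transcription factor genes C15, croc, slou, Kr, Gsc and run were in the same set, between 2.28 and 5.04 CPM in TRAP, and so was the channel gene TrpA1 (2.78 CPM in TRAP, against 0.714 CPM in total mRNA). The opposite pattern, above 2 CPM in every male total mRNA library and in no TRAP library, held for 179 genes with no tested exon. No test was run on either set, since both were chosen by these values.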
